A study of Mus musculus with 4 samples.

Results

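The 10 claudin genes Cldn1, Cldn3, Cldn4, Cldn5, Cldn7, Cldn8, Cldn12, Cldn15, Cldn18 and Cldn23 were taken by name from the GENCODE M1 annotation of the mouse genome (mm9). They are 10 of 21418 autosomal protein-coding genes. From 5 kb upstream of each gene to its end, 339 of the 4076373 autosomal bins of 200 bp that could be tested were theirs, between 9 bins at Cldn8 and 90 at Cldn18. All 10 genes had bins that passed the filter on coverage, which asked for 2 or more CpGs and 10 or more calls in every library.

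Claudins are membrane proteins with 4 transmembrane segments that link neighbouring epithelial cells at the tight junction. Some of them seal the space between cells against ions and small solutes, whereas others form pores that let cations or anions pass, and the mix of claudins sets how leaky an epithelium is. In the intestine the mix differs along the gut, between crypt and surface and between the newborn and the weaned animal.

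Whole-genome bisulfite sequencing, which tells methylated from unmethylated cytosines at single bases, gave DNA methylation in 4 libraries from the colon of mice that carried the Lgr5-EGFP-CreER reporter, bred to wild-type C57 mice. Intestinal stem cells (ISCs) were sorted as Lgr5-EGFP-positive and differentiated epithelial cells as EpCAM-positive and Lgr5-EGFP-negative, each at postnatal day 0 (P0) and day 21 (P21). Each of the 4 groups was 1 library from pooled mice, litters at P0 and reporter-positive offspring at P21. The study's methods name no separate pools for the 2 populations of an age, which may therefore share animals. The reporter follows the Lgr5 gene, and a sort by it leaves in the differentiated population any stem cell without EGFP signal. With 1 library a group, every test below compared single libraries by their counting error, 2 libraries in a Fisher's exact test and all 4 in a test of the difference between changes, and animals, pools and library preparation cannot be told apart from age or cell population.

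The libraries held 1023427645 to 1188114423 calls, a call being 1 read of 1 CpG cytosine. The median bin had 55 calls in P0 ISCs, 81 in P0 differentiated cells, 58 in P21 ISCs and 68 in P21 differentiated cells. Promoters of 9 epithelial genes had medians of 2.54%, 2.58%, 2.50% and 1.17% in that order of libraries, with Krt18 the highest among them at 11.6% to 18.5% and Krt19 at 5.66% to 10.8%. Promoters of 8 blood cell genes had medians of 78.9% to 81.3%, although Coro1a among them ranged only from 7.57% to 10.5%. Promoters of 4 endothelial genes had medians of 78.2%, 77.3%, 75.7% and 72.6% in the same order of libraries, and 1 of the 4 was higher at P21 in each population. The 5 mesenchymal genes were mixed, from 0.25% at Pdgfra in P0 differentiated cells to 69.95% at Pdgfrb in P21 ISCs, and 4 of them in ISCs and 3 in differentiated cells were higher at P21. Their median fell from 27.6% and 26.0% at P0 to 12.5% and 7.84% at P21, which were the levels of Col3a1, on 40 to 87 calls. The part of other cell types in the results below was not tested.

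A bin was called when its level differed by more than 15 points between 2 libraries with an adjusted p below 0.05, by a two-sided Fisher's exact test with Benjamini-Hochberg adjustment over all autosomal bins. In ISCs, 17 claudin bins were called between P0 and P21, of which 1 gained and 16 lost methylation. Over all bins, 2.55% were called in that comparison, 1.07% as gains and 1.48% as losses. In differentiated cells, 20 claudin bins were called, 4 as gains and 16 as losses, where 2.85% of all bins were called, 0.992% as gains and 1.86% as losses. As shares of the 339 claudin bins these were 5.01% in ISCs and 5.9% in differentiated cells.

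A single gene carried most of this. Cldn15 held 12 of the 16 losses in ISCs and 12 of the 16 in differentiated cells, on 51 bins. Its bins begin 5 kb upstream of the gene, and part of these losses, in both populations, lay there within the neighbouring gene Fis1. Without Cldn15, 5 of 288 claudin bins (1.74%) were called in ISCs and 8 of 288 (2.78%) in differentiated cells, close to the shares over all bins. The median change of the claudin bins was -0.30 points in ISCs and -0.36 points in differentiated cells, beside 0 and -0.07 points over all bins.

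The bins that lost methylation were largely shared by the 2 populations. In both, 11 losses were called, 10 of them at Cldn15, counting those within Fis1, and 1 at Cldn7. These 11 were 3.24% of the claudin bins, where 0.673% of all bins were called as losses in both. Without Cldn15, 1 of 288 claudin bins was a loss in both, not more than that share. No gain was called in both, where 0.255% of all bins were. None of the 47 claudin bins in CpG islands (CGIs) was called in any of the 4 comparisons. Of all CGI bins, 1.74% were called between ages in ISCs and 1.51% in differentiated cells, and 0.446% between the populations at P0 and 0.273% at P21, so that a count of 0 in 47 bins was near these shares.

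**Figure D1:**
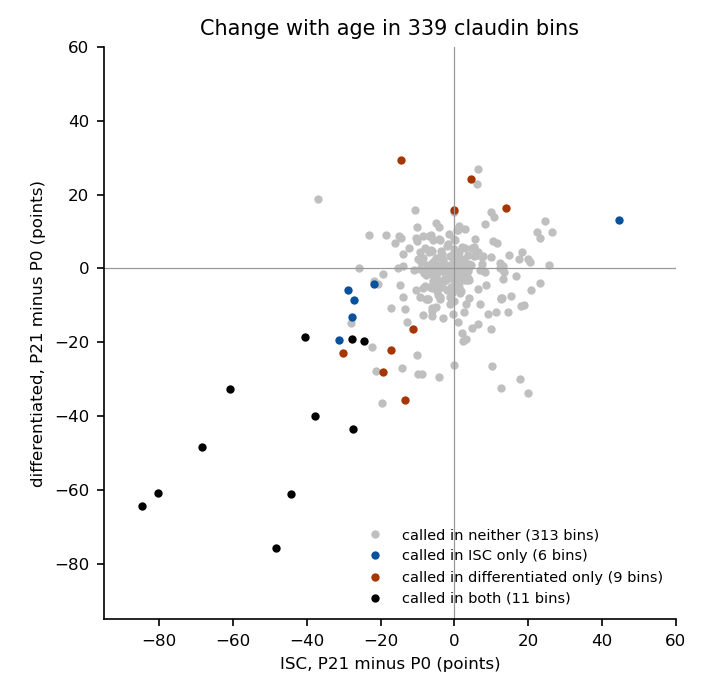
Each point is 1 of 339 claudin bins of 200 bp, with the P21 minus P0 difference in methylation in ISCs on the horizontal axis and in differentiated cells on the vertical axis, both in percentage points. The 11 bins called in both populations (black) lie at the lower left, 6 bins were called in ISCs alone, 9 in differentiated cells alone and 313 in neither.

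Cldn15 forms a cation-permeable pore, and in the intestine it is known for letting sodium return to the lumen. Its gene spans chr5:137442486-137451728 on the plus strand, with 6 exons and no CGI. GENCODE places the start of the longest coding transcript at position 137442486, while the single RefSeq promoter sequence for Cldn15, matched exactly to mm9, places the start at 137443739, which is 1253 bp further in and inside exon 2 of the GENCODE transcript. GENCODE has a transcript start at that second position too.

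At P0 the start region of Cldn15 was a short unmethylated stretch, followed directly downstream by a bin at 52% in ISCs and 46% in differentiated cells and preceded by bins of intermediate level, between 9.29% and 29.9%, back to -1285 bp of the GENCODE start. Among the bins tested, those below 20% ran without a break from -485 to 1315 bp of the GENCODE start in both P0 libraries. This stretch ended 62 bp after the RefSeq start, and its length includes positions with no tested bin. At P21 the same stretch ran from -1285 to 1715 bp in both libraries, so it had grown from 1800 to 3000 bp, in 11 tested bins instead of 5. The limit of 20% was chosen with the data known, and the upstream part of this growth depended on it. With a limit of 30% or 40% the P0 stretch already began at -1285 bp, and the growth was from 2600 to 3000 bp in both populations, all of it downstream. With a limit of 10% the P21 stretch was 2600 bp in ISCs and 3000 bp in differentiated cells, against 1800 bp at P0.

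**Figure D2:**
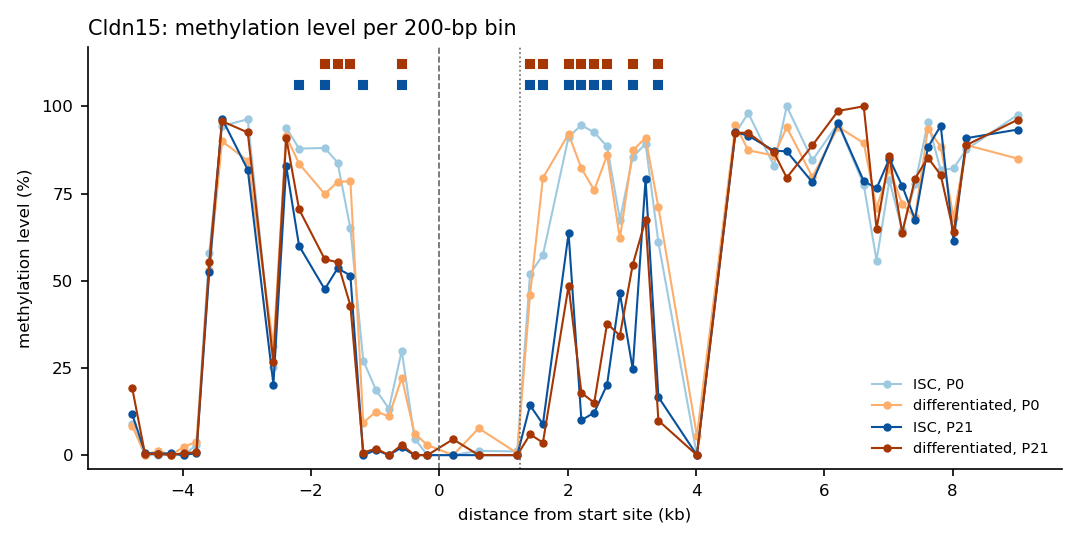
Methylation level (%) of each tested 200-bp bin of Cldn15 in the 4 libraries against distance from the GENCODE start site in kb (dashed line), with the RefSeq start as a dotted line. Squares above mark bins called between P0 and P21 in ISCs (blue) and in differentiated cells (brown), 12 in each, and the P21 lines fall below the P0 lines on both sides of the unmethylated start, while all 4 lines meet again beyond 4 kb.

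Downstream, the loss began just after the RefSeq start, since the tested bins between the 2 starts were already at 7.69% or less at P0. In the 2 bins at chr5:137443801-137444200, which cover exon 2 and the edge of intron 2, methylation was 54.3% in P0 ISCs and 54.0% in P0 differentiated cells, but 12.3% and 5.37% at P21. The changes were -42.0 and -48.6 points. Both P0 libraries were higher than both P21 libraries, and the Wilson 95% intervals did not meet (46.9% to 61.5% and 49.9% to 58.0% at P0, 8.61% to 17.3% and 3.78% to 7.56% at P21).

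The deepest losses lay in intron 2. Over the 4 bins at chr5:137444401-137445200, with 15 CpGs, methylation was 91.0% of 244 calls in P0 ISCs and 86.4% of 669 calls in P0 differentiated cells, and 34.7% of 259 calls and 37.9% of 567 calls at P21. The ISC level fell by 56.2 points and the level of differentiated cells fell by 48.5 points, and these falls differed by -7.61 points with a counting error of 4.25 (SE). Of the bins in this run, adjusted p ranged from 1.26e-18 to 0.00161 in ISCs and from 4.21e-29 to 5.84e-07 in differentiated cells by Fisher's exact test.

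These are the sequences of the pair of neighbouring intron 2 bins where the loss was deepest among bins with at least 40 calls in every library, on the plus strand of mm9, with each CpG in capitals.
Cldn15 intron 2, chr5:137444801-137445000: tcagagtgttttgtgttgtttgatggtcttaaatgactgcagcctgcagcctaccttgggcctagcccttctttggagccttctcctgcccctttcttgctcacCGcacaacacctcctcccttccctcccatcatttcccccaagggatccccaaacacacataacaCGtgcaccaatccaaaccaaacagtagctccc
Cldn15 intron 2, chr5:137445001-137445200: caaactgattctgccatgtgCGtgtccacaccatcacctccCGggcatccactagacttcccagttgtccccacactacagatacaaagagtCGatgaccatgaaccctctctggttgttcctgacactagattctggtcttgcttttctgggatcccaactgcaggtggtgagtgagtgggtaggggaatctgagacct

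Both stretches are poor in CpGs, with 2 and 3 in 200 bp and a GC content of 52.5% and 52%. All 6 consecutive pieces of 30 bases from the first bin occurred once in the autosomes. The first bin was methylated at 92.5% in P0 ISCs and 76.0% in P0 differentiated cells, and at 12.2% and 15% at P21 (adjusted p = 3.72e-11 and 5.97e-18, Fisher's exact test). The second went from 88.5% to 20.2% in ISCs and from 86.0% to 37.7% in differentiated cells (adjusted p = 1.26e-18 and 4e-17, Fisher's exact test).

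Most single CpGs of the bins called in both populations were lower at P21, by unequal amounts. At position 137444905, the first capital pair above, methylation was 92.9% in P0 ISCs and 85.2% in P0 differentiated cells and 9.52% and 11.8% at P21, on 21 to 54 calls. At position 137445042, in the second sequence, it was 85.3% and 80.4% at P0 and 5.71% and 39.3% at P21, on 34 to 56 calls. The 10 bins called in both populations, some of them within Fis1, hold 45 CpGs. In every library 42 of them had at least 5 calls. Of these, 40 were lower at P21 in ISCs and 39 in differentiated cells, with median differences of -41.1 and -44.3 points. The differences ranged from -100 to 0 points in ISCs and from -90 to 3.03 points in differentiated cells. As those bins were picked by the same calls, these counts describe how the loss was spread over CpGs and are no further evidence of it.

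Further along intron 2 the losses stopped. The bin at chr5:137445801-137446000 still went from 61.0% to 16.7% in ISCs and from 71.1% to 9.92% in differentiated cells. The bin at chr5:137445401-137445600 went from 85.4% to 24.7% in ISCs and from 87.4% to 54.6% in differentiated cells. From 137447001 to the end of the gene no bin was called, and the last exon stood at 89.5%, 88.5%, 91.2% and 89.9% in P0 ISCs, P0 differentiated cells, P21 ISCs and P21 differentiated cells.

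That bin at 137445401 was also the one place in Cldn15 where the populations differed at P21, by 29.9 points with differentiated cells higher (adjusted p = 0.0196, Fisher's exact test). The ISC level there fell by 60.7 points and that of differentiated cells fell by 32.8 points. The test of the difference between these falls gave -27.1 ± 8.52 points (SE) and an adjusted p of 0.112 (a Wald test over all bins, not an exact one), which did not pass.

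Upstream of the start, the losses lay inside the neighbouring gene. Fis1, which encodes a mitochondrial outer membrane protein of the fission machinery, ends on the same strand at 137442104. This is before the GENCODE start of Cldn15 at 137442486, so the bins called here lie within Fis1 and are only upstream of Cldn15. At chr5:137440601-137440800, in an intron of Fis1, methylation was 88.1% in P0 ISCs and 74.9% in P0 differentiated cells and 47.5% and 56.2% at P21, called in both. At chr5:137441801-137442000, in the last exon of Fis1, it was 29.9% and 22.2% at P0 and 2.22% and 2.96% at P21, called in both.

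The other upstream calls were made in 1 population. The bins at chr5:137440201-137440400 (87.9% to 60%) and chr5:137441201-137441400 (27.1% to 0%) were called as losses in ISCs, with 83.5% to 70.5% and 9.29% to 0.72% in differentiated cells. The 2 bins from 137440801 to 137441200 were called in differentiated cells, at 78.3% to 55.3% and 78.5% to 42.9%, and in ISCs they went from 83.9% to 53.6% and from 65.0% to 51.5%. Only the direction was alike in every case, and no difference between the populations in these changes passed its own test. The 5 unmethylated bins of Fis1 further upstream, from 137437801 to 137438800, stayed between 0% and 3.81% in all 4 libraries.

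By region, the Cldn15 promoter, taken as 1 kb on each side of the GENCODE start, had 9.90% and 10.95% in the P0 libraries of ISCs and differentiated cells and 0.63% and 1.21% in the P21 libraries. It fell by 9.27 points in ISCs (95% interval -12.6 to -6.43, adjusted p = 1.44e-09) and fell by 9.74 points in differentiated cells (-12.5 to -7.27, adjusted p = 6.83e-14), by Fisher's exact test over all gene regions. Of its 7 bins, only the bin at 137441801, in the last exon of Fis1, was called in either population. With a promoter of 500 bp on each side, which leaves that bin out, the promoter changes were -1.84 and -3.01 points and were no longer called. With 2 kb on each side they were -12.9 and -24.7 points and called. Around the RefSeq start, the same 1-kb window fell from 36.7% to 15.5% in ISCs and from 53.4% to 14.7% in differentiated cells, with 4 of its 6 bins called in each. These levels were summed over calls, and the 2 bins from 137443801, near 54% in both populations at P0, held unequal parts of them. They had 175 of 562 calls in P0 ISCs and 591 of 1249 in P0 differentiated cells. The gene body fell from 69.5% to 55.3% and from 74.1% to 51.7%, changes of -14.2 and -22.4 points (adjusted p = 3.17e-17 and 2.24e-79, Fisher's exact test). As the mean of its 26 bins, the body went from 74.9% to 56.0% in each population, a change of -18.9 points in both.

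Among the 17133 protein-coding genes with at least 20 bins tested, 26, Cldn15 included, had as large a share of bins lost in both populations as its 19.6%, and 10919 had no such bin. By number alone, 248 of these genes had 10 or more, since long genes have more bins. The window of each gene began 5 kb upstream, so the Cldn15 share counts bins that lie within Fis1.

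Cldn7 is found at the tight junction and along the basolateral membrane of the intestinal epithelium, where it is one of the more abundant claudins. It lies at chr11:69778281-69781387 on the plus strand, with 4 exons and a CGI of 2096 bp over its start. Its promoter was unmethylated in all 4 libraries, at 1.21%, 0.78%, 0.14% and 0.35% in P0 ISCs, P0 differentiated cells, P21 ISCs and P21 differentiated cells.

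At the 3′ end of Cldn7 methylation fell in both populations. GENCODE also has a transcript start at 69780420, 1522 bp past the start used here, so these bins lie near an annotated start as well. The window of 1 kb on each side of it went from 6.19% to 2.99% in ISCs and from 5.28% to 2.94% in differentiated cells. It held 1 bin called in ISCs and 2 called in differentiated cells. The bin at chr11:69780801-69781000, across the end of exon 3 and intron 3, had 35.5% in P0 ISCs and 34.9% in P0 differentiated cells and 10.8% and 15.2% at P21 (adjusted p = 0.000125 and 0.000785, Fisher's exact test). The next bin, in the last exon, had 38.6% and 46.1% at P0 and 19.3% and 18.1% at P21, and passed in differentiated cells (adjusted p = 0.00012) but not in ISCs (adjusted p = 0.0631, Fisher's exact test). Taken as a region, the last exon fell from 38.1% to 17.6% in ISCs and from 42.1% to 20.3% in differentiated cells, changes of -20.5 and -21.8 points (95% intervals -30.5 to -10.1 and -30.8 to -12.05), and was called in both. Its second bin, at chr11:69781201-69781400, had 20 to 37 calls in a library and went from 17.9% to 27.0% in differentiated cells, which did not pass (adjusted p = 0.939, Fisher's exact test). As the mean of the 2 bins, the last exon changed by -9.42 points in differentiated cells.

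The sequence of the bin called in both populations is given on the plus strand of mm9 with each CpG in capitals, to show where its 5 CpGs sit.
Cldn7 exon 3 to intron 3, chr11:69780801-69781000: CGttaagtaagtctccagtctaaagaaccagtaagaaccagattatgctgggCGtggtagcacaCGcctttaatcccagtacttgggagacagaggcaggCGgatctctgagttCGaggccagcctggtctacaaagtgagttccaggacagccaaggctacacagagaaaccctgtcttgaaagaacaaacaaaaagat

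The first CpG, at position 69780801, was at 0% in all 4 libraries. The other 4 were lower at P21 in both populations. The CpG at 69780853, with the largest fall in differentiated cells, went from 56.0% to 28.2% in ISCs and from 65.9% to 17.5% in differentiated cells. In differentiated cells the others went from 30% to 10.8%, from 32% to 26.7% and from 32.6% to 26.7%. Over the 5 CpGs the median difference was -27.8 points in ISCs and -5.94 points in differentiated cells. Of 6 consecutive pieces of 30 bases from this bin, 2 occurred once in the autosomes and the most frequent occurred 26850 times, so much of the bin is repeated sequence, and the part of read placement in its values was not tested.

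At the other edge of the Cldn7 island, the bin at chr11:69778001-69778200 had 12.6% in P0 ISCs and 17.8% in P0 differentiated cells and 1.38% and 1.28% at P21. It was called in differentiated cells (adjusted p = 0.00911, Fisher's exact test). In ISCs the change of -11.2 points was under the limit of 15 points although its adjusted p was 0.00478 (Fisher's exact test). The stretch of bins below 20% around the start grew from 2600 bp at P0 to 3400 bp in ISCs and 3200 bp in differentiated cells at P21, on its 3′ side. With a limit of 10% it grew by 200 bp in each, on its 5′ side, and with 30% by 800 bp in each, on its 3′ side. With 40% it grew by 400 bp in differentiated cells and did not grow in ISCs (3400 bp at both ages).

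**Figure D3:**
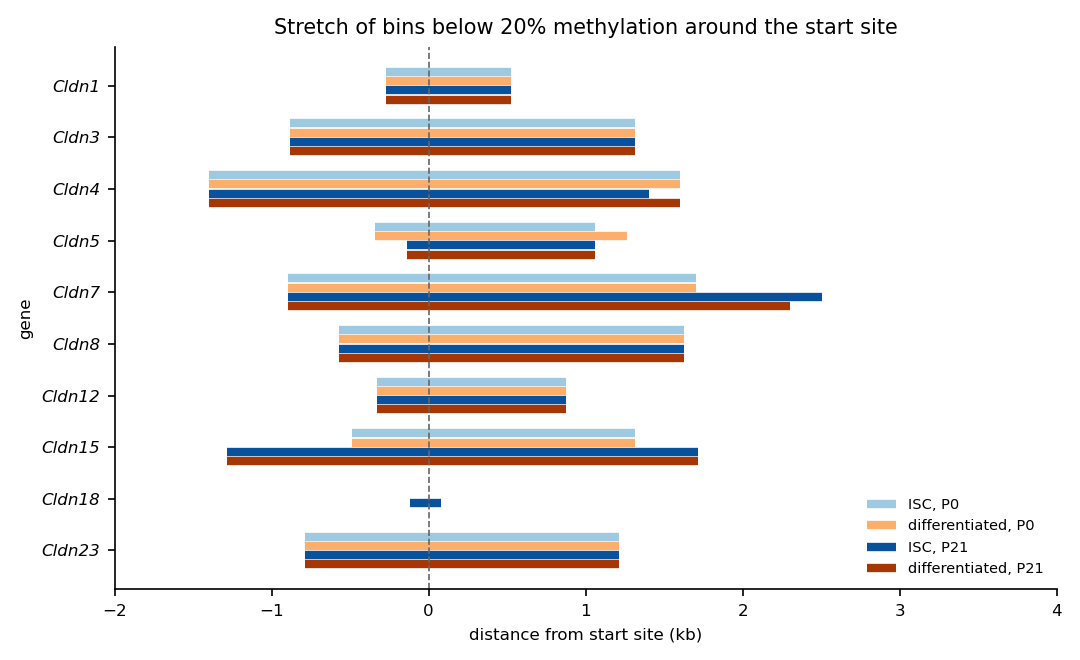
For each gene and library, the bar spans the unbroken run of tested 200-bp bins below 20% methylation that holds the bin nearest the start site, against distance from that site in kb. At Cldn15 both P21 bars are 3000 bp and both P0 bars 1800 bp long, Cldn7 also has longer P21 bars, Cldn5 has shorter ones (1200 bp against 1400 and 1600 bp), Cldn4 has one of 2800 bp in ISCs at P21 against 3000 bp, and Cldn18 has a bar of 1 bin, in ISCs at P21 alone. With a limit of 30% the Cldn5 stretch was shorter at P21 in ISCs alone, with 40% it was 1800 bp in every library, and with 10% there was none. The Cldn4 stretch was 3000 bp in every library with 30% or 40%. With 10% it was 1800 bp at P21 against 3000 bp at P0 in both populations.

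Cldn3 and Cldn4 are abundant in colonic epithelium and are single-exon genes, Cldn3 at chr5:135462084-135463342 on the plus strand and Cldn4 at chr5:135420996-135422804 on the minus strand. The Cldn3 promoter was at 2.02%, 3.20%, 3.55% and 2.61% in P0 ISCs, P0 differentiated cells, P21 ISCs and P21 differentiated cells, and the Cldn4 promoter between 0.48% and 0.84%. Neither promoter was called between ages or between populations. No bin of Cldn3 was called. At Cldn4, 1 upstream bin, chr5:135425601-135425800, gained in ISCs from 37.0% of 46 calls to 81.5% of 27 calls (adjusted p = 0.0147, Fisher's exact test), where differentiated cells had 33.0% and 46.2%. This single gain called in ISCs was not called with calls thinned to the lowest library. The gain in differentiated cells did not pass, and the difference between the populations in the change was 30.02 ± 13.9 points (SE, adjusted p = 0.375, by a Wald test and not an exact one).

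Cldn8, a sealing claudin of the distal gut and kidney tubule, is a single-exon gene at chr16:88561073-88563428 on the minus strand with no CGI. Its promoter had 3.45% and 3.83% in the P0 libraries and 0.16% and 0.75% in the P21 libraries. Both changes had small adjusted p (9.65e-05 and 2.26e-05, Fisher's exact test) but, at -3.29 and -3.08 points, were below the 5-point limit set for regions. None of its 9 tested bins was called.

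Cldn1, a sealing claudin needed for the barrier of the skin, has a CGI of 648 bp at its start on chr16 (26356728-26371927, minus strand). The bin nearest its start was at 0% to 1.79%, and the highest bin of its promoter window was the one at the downstream edge, at 78.3% to 90.5% on 21 to 78 calls, beside 2.42% to 5.44% in the bin furthest upstream. Summed over calls, the promoter was at 16.0% of 600 calls in P0 ISCs and 4.61% of 1604 calls in P0 differentiated cells, and 10.3% of 783 and 4.67% of 1134 calls at P21, a called change of -5.66 points in ISCs (adjusted p = 0.0129, Fisher's exact test). As the mean of its 5 bins, the same promoter was at 22.2%, 18.7%, 19.7% and 20.4% in P0 ISCs, P0 differentiated cells, P21 ISCs and P21 differentiated cells, and the change in ISCs was -2.54 points. The change in ISCs was not called with a promoter of 500 bp (-1.55 points) or 2 kb (-5.17 points) on each side. No single bin of Cldn1 was called. Its body fell from 80.3% to 75.2% in differentiated cells (adjusted p = 0.00121, Fisher's exact test). The change was not past the 5-point limit with at least 20 calls per bin (-4.31 points) or with a promoter of 500 bp on each side (-4.91 points).

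Cldn5 is best known as the sealing claudin of endothelium and is also made by epithelia. It is a single-exon gene at chr16:18776940-18778353 on the plus strand, with a CGI that begins after the start site. Its promoter was at 13.9%, 10.5%, 14.2% and 12.6% in P0 ISCs, P0 differentiated cells, P21 ISCs and P21 differentiated cells. The change in ISCs was 0.33 points, and with a promoter of 500 bp on each side it was a called gain of 6.32 points. Methylation declined from upstream towards the island, and on that slope the bin at chr16:18776601-18776800 had 14.9% in P0 ISCs and 8.20% in P0 differentiated cells and 28.8% and 24.5% at P21. The gain was called in differentiated cells (16.3 points, adjusted p = 5.75e-05) and not in ISCs (13.8 points, adjusted p = 0.228, Fisher's exact test), and the 2 gains differed by -2.69 ± 6.22 points (SE). With calls thinned to the lowest library the gain in differentiated cells was not called. At the 3′ end, the last exon went from 13.6% to 23.9% in differentiated cells (adjusted p = 0.0194 over all gene regions, Fisher's exact test) and from 22.1% to 22.9% in ISCs. This region was a single bin, whose adjusted p over all bins was 0.0862 (Fisher's exact test). With a promoter of 500 bp on each side the last exon held 4 bins, and its change in differentiated cells was 1.91 points and not called.

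**Figure D4:**
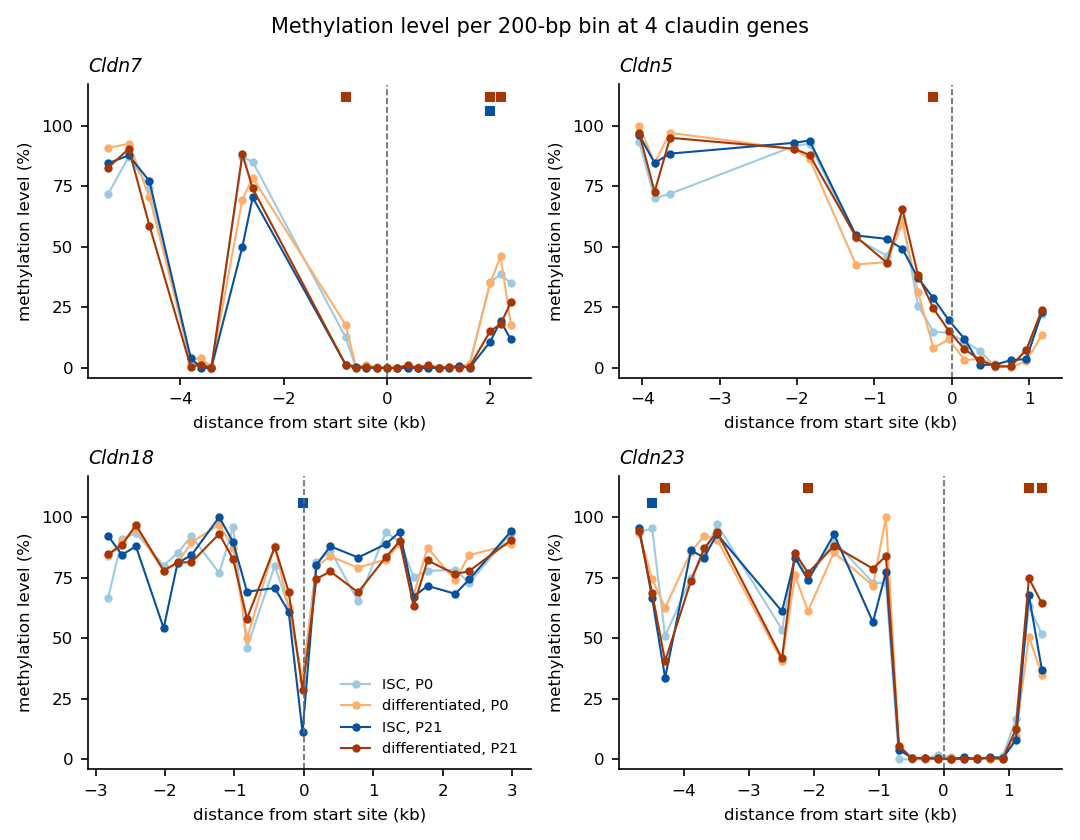
Methylation level (%) of each tested 200-bp bin at Cldn7, Cldn5, Cldn18 and Cldn23 in the 4 libraries, against distance from the start site in kb (dashed line), with squares for bins called between ages in ISCs (blue) and differentiated cells (brown). The P21 lines lie below the P0 lines 2 kb into Cldn7, above them just before the Cldn5 start, and the ISC line at P21 dips lowest at the Cldn18 start, to 11.3%.

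Cldn12, an unusual claudin tied to calcium transport, spans chr5:5505109-5514958 on the minus strand and had no called bin among 36. Its promoter was at 9.21% of 945 calls in P0 ISCs and 2.64% of 3788 calls in P0 differentiated cells, and 4.61% and 3.56% at P21, whereas the mean over its 7 bins stayed between 11.2% and 12.3% in all 4 libraries. The body was at 87.9% to 90.2% and the last exon at 65.3% to 69.4%, with no region called between ages. The promoter change in ISCs, -4.60 points (adjusted p = 7.7e-05, Fisher's exact test), was under the 5-point limit. It was called at -9.50 points with bins of over 1000 calls left out and at -5.63 points with a promoter of 2 kb on each side, and as the mean of bins it was 0.65 points. The body, at 0.37 points in ISCs, was a called -13.5 points with a promoter of 500 bp on each side, which left it 16 bins instead of 14.

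Cldn18, whose products mark stomach and lung, spans chr9:99589880-99617686 on the minus strand and had the one methylated promoter of the 10. The window around the start of its longest coding transcript, at 99610482, was at 65.9%, 69.7%, 62.7% and 65.7% in P0 ISCs, P0 differentiated cells, P21 ISCs and P21 differentiated cells, and the window around a second start, 99617686, at a distance of -7204 bp, at 86.1% to 88.7%. Within that methylated surround, the bin on the first start, chr9:99610401-99610600, dipped to 33.1%, 32.8%, 11.3% and 28.6% in the same order. Its change in ISCs was called (-21.8 points, adjusted p = 0.00395) and that in differentiated cells was not (-4.24 points, adjusted p = 0.874, Fisher's exact test), but the difference between the changes, -17.4 ± 7.0 points (SE), did not pass (adjusted p = 0.275, Wald test).

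That bin holds 5 CpGs, and the 118 bases of it that lie before the Cldn18 start, which hold 1 of them, are read 5′ to 3′ on the minus strand of mm9.
Cldn18 before its start, chr9:99610483-99610600: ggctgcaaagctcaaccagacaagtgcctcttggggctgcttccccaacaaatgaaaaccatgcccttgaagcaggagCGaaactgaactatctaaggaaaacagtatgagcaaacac

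The single CpG in it (capitals) was at 37.5%, 18.2%, 25% and 36.4% in P0 ISCs, P0 differentiated cells, P21 ISCs and P21 differentiated cells. The 4 CpGs after the start were at 19.0% to 47.8% in ISCs at P0 and at 0% to 12% in ISCs at P21. Elsewhere in the gene, an intron 1 bin at chr9:99602601-99602800 fell in ISCs from 51.7% to 20.4% (adjusted p = 0.0472), where differentiated cells had 52.6% of 19 calls and 33.3% of 12 calls (adjusted p = 0.893, Fisher's exact test). A bin at chr9:99596401-99596600 differed between the populations at P21, 95.7% of 23 calls in ISCs against 34.6% of 26 calls in differentiated cells (adjusted p = 0.00966, Fisher's exact test).

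Cldn23 is a single-exon gene at chr8:36887766-36889613 on the minus strand, made in differentiated cells of the colonic surface, and a CGI of 1859 bp covers its start and most of its coding part. The promoter stayed low, at 1.80%, 0.62%, 2.69% and 1.25% in P0 ISCs, P0 differentiated cells, P21 ISCs and P21 differentiated cells. In 1 bin beyond the island, in the 3′ untranslated part, the changes in the 2 populations went in opposite directions. The bin at chr8:36888001-36888200 was at 51.7% of 151 calls in P0 ISCs and 35.0% of 103 calls in P0 differentiated cells, and at 37.1% of 89 calls and 64.5% of 121 calls at P21.

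Differentiated cells were thus the lower library at P0 and the higher one at P21. The rise of 29.5 points in differentiated cells was called (adjusted p = 0.0012), the change of -14.6 points in ISCs was not (adjusted p = 0.317), and at P21 differentiated cells were 27.4 points above ISCs (adjusted p = 0.0452, Fisher's exact test). With calls thinned to the lowest library, neither the rise nor the P21 difference was called. The difference between the changes, -43.7 ± 9.12 points (SE), passed its own test (adjusted p = 0.00225, by a Wald test and not an exact one). It was the one claudin bin of 339 to do so, where 0.518% of all bins passed and differed by over 15 points, so that 1 of 339 was not more than that share. The neighbouring bin, from 36888201, was at 63.2%, 50.6%, 67.7% and 74.7% in the same order and was also called as a gain in differentiated cells. That gain too was not called with calls thinned to the lowest library.

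Over the whole last exon beyond the promoter window, Cldn23 was at 49.1%, 25.7%, 39.7% and 43.4%. The rise in differentiated cells was 17.7 points (95% interval 10.99 to 24.2, adjusted p = 4.13e-06) and the change in ISCs -9.39 points (-17.0 to -1.52, adjusted p = 0.0883, Fisher's exact test). With a promoter of 500 bp on each side the last exon held 6 bins instead of 3, the rise in differentiated cells was 3.89 points and no longer called, and the change in ISCs, -6.12 points, was called. Upstream, 1 bin more than 4 kb away was called as a loss in ISCs and its neighbour as a loss in differentiated cells. A bin at 36891601 was called as a gain in differentiated cells (61.2% to 77.0%), but not with calls thinned to the lowest library.

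**Figure D5:**
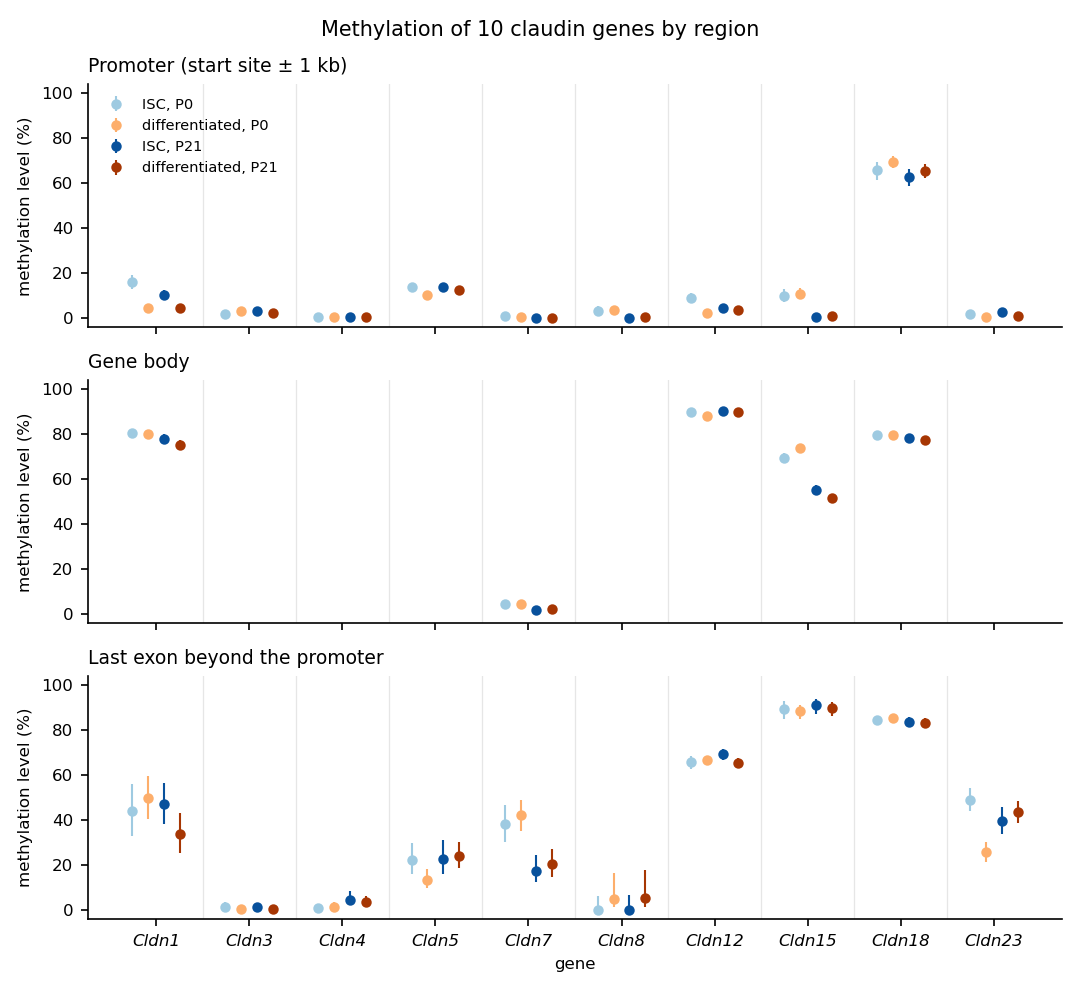
Methylation level (%) of each gene's promoter, body and last exon in the 4 libraries, with Wilson 95% intervals that cover counting error. Single-exon genes have no body, the Cldn18 promoter is the one above 60%, and the P21 libraries lie lower than the P0 libraries for the Cldn15 promoter and body and the Cldn7 last exon.

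Taken by region, 25 promoters, bodies and last exons of the 10 genes were tested, and a region was called where its level differed by over 5 points with an adjusted p below 0.05. In ISCs 4 were called, all losses (the Cldn1 and Cldn15 promoters, the Cldn15 body and the Cldn7 last exon), where 10.2% of all gene regions were called and 5.25% as losses. With a promoter of 500 bp on each side 5 were called, 1 of them the gain at the Cldn5 promoter. The Cldn7 body, at -2.60 points in ISCs, was called as the mean of bins (-5.14 points) and with a promoter of 2 kb on each side, which left it the single bin at 69780801 (-24.6 points). In differentiated cells 6 were called, 2 gains (the last exons of Cldn5 and Cldn23) and 4 losses (the Cldn15 promoter and body, the Cldn1 body and the Cldn7 last exon), where 9.91% of all regions were called, 4.67% as gains and 5.24% as losses. All promoters but that of Cldn18 were at or below 16.0% in every library, beside a median over all genes of 12.3%, 8.46%, 12.1% and 8.94% in P0 ISCs, P0 differentiated cells, P21 ISCs and P21 differentiated cells.

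Between ISCs and differentiated cells of the same age, few claudin bins were called, while 3 regions were called at P0. At P0 no bin of 339 was called between them, where 0.508% of all bins were, and 32 had an unadjusted p below 0.05 (9.44%, beside 11% of all bins, Fisher's exact test). At P21, 3 bins were called, the ones at Cldn15, Cldn18 and Cldn23 given above (0.885%, beside 0.182% of all bins). With calls thinned to the lowest library none of the 3 was called, and with bins shifted by 100 bp 1 claudin bin was.

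By region, 3 of 25 were called at P0, all lower in differentiated cells, where 11% of all gene regions were called and 8.32% as lower in differentiated cells. The Cldn23 last exon stood at 25.7% in differentiated cells against 49.1% in ISCs (-23.4 points, 95% interval -29.9 to -16.6, adjusted p = 8.81e-10, Fisher's exact test). It stayed called, with smaller differences, as the mean of bins (-12.1 points) and with a promoter of 500 bp on each side (-13.5 points). The other 2 alternatives, both limits on calls per bin, left its bins as they were and could not change it. The promoters of Cldn1 (-11.4 points, adjusted p = 2.07e-15) and Cldn12 (-6.57 points, adjusted p = 2.68e-15, Fisher's exact test) were called on calls summed over their bins. As means of bins these differences were -3.54 and 1.13 points, and with a promoter of 500 bp on each side -1.63 and 0.78 points, none of them called. With a promoter of 2 kb on each side they were called, at -17.3 and -8.22 points, and with bins of over 1000 calls left out the Cldn12 difference was -13.4 points. At P21, 1 region was called, the Cldn1 promoter (-5.67 points, adjusted p = 3.41e-05, Fisher's exact test), where 8.56% of all regions were called and 6.78% as lower in differentiated cells. As the mean of bins it differed by 0.72 points, with the 500-bp promoter by -0.57 points, and with the 2-kb promoter by -14.6 points, which was called.

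Other genes of the tight junction, listed by function, also had called bins. Of 12 further claudins, all were found, with 847 bins. In ISCs 20 of these were called as gains and 16 as losses (4.25%), and in differentiated cells 20 as gains and 14 as losses (4.01%), beside 2.55% and 2.85% of all bins and 2.88% and 3.24% of the bins of protein-coding genes. Of these genes, 3 had at least 2 bins called in the same direction in both populations. At Cldn6, a claudin of embryonic epithelia, 2 promoter bins at chr17:23816801-23817200 gained, from 36.7% to 64.2% in ISCs and from 36.5% to 67.6% in differentiated cells. At Cldn10, a paracellular ion channel of kidney and glands, 4 bins spread between 119182801 and 119253800 on chr14 gained. They lay at separate places, at the promoter of the longest coding transcript and upstream of the outermost start of the gene. Summed over these places, the level went from 40.6% to 71.0% in ISCs and from 47.1% to 70.4% in differentiated cells. At Cldn14, a cation-restricting claudin of the kidney and inner ear, 4 bins gained (62.5% to 84.0% and 61.1% to 79.0%) and 2 intron 1 bins lost (64.0% to 13.1% and 60.3% to 19.7%), out of 303. Over the bins of all protein-coding genes, 0.342% were called as gains in both populations and 0.785% as losses in both, so that 2 losses at Cldn14 were not more than that share.

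The 24 partner genes, which encode other junction membrane proteins, scaffolds and polarity proteins, were all found, with 6760 bins. In ISCs 141 were called as gains and 98 as losses (3.54%), in differentiated cells 132 and 136 (3.96%), beside the same 2.88% and 3.24% of the bins of protein-coding genes. Among membrane proteins, Ocln (occludin), Marveld2 (tricellulin), Jam2 and Ildr1 (angulin-2) had 2, 4, 4 and 5 bins lost in both populations on 133, 70, 149 and 91 bins, and Cxadr had 3 gained on 188. The Cxadr bins lay in the untranslated part of exon 7 or beyond the end of its longest coding transcript. The 4 intron 3 bins of Marveld2 went from 45.2% to 15.7% in ISCs and from 35.2% to 16.4% in differentiated cells, and the 5 bins of Ildr1 from 67.5% to 29.96% and from 67.2% to 34.4%. Marveld3 had 3 bins gained in its last exon (34.2% to 67.7% and 35.0% to 68.1%) and 2 lost elsewhere.

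Among scaffolds, Tjp1 (ZO-1) gained over 5 bins of intron 1, from 47.4% to 90.3% in ISCs and from 48.4% to 80.8% in differentiated cells. Tjp3 (ZO-3) had 2 bins lost in both populations, from 44.1% to 9.14% in ISCs and from 39.2% to 9.02% in differentiated cells. Cgnl1 (paracingulin) had 8 gained on 431 bins, Magi1 9 gained and 5 lost on 1423, Inadl (PATJ) 3 gained on 728 and Cgn (cingulin) 3 lost on 323. The Cgn bins lay within the annotated gene but beyond the end of its longest coding transcript. The polarity gene Pard3 had 10 gained and 11 lost on 1192 bins, and Pard6b had 2 lost on 99. Beside the same 0.342% and 0.785%, the gains of Inadl and the losses of Pard3 and Cgn were near the share of all protein-coding genes and the losses of Magi1 below it. These lists were set by function with earlier results of these data known, and their counts are descriptions.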

How the data were processed

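For each library the authors deposited, at every CpG cytosine of either strand, the count of all calls, the count of methylated calls and their ratio as a fraction. Per the labels and the study's methods, bisulfite reads were trimmed and mapped to mm9 with Bismark. The version of Bismark is not given in the sources used here, nor is any removal of duplicates. Remaining duplicates would make a count larger than its number of molecules and Fisher's p too small.

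The deposited fractions were not used. Calls at reference CpGs of mm9 were summed over both strands and over 200-bp bins (Python 3.11.15, numpy 2.4.6, scipy 1.17.1, numba 0.67.0), and levels are methylated calls in percent of all calls. Regions followed the GENCODE M1 transcript with the longest coding sequence. Promoters took 1 kb on each side of the start and had precedence over the last exon, and the last exon over the body. The part of a last exon within 1 kb of the start therefore counted as promoter. CGIs were regions where 500-bp windows held at least 25 CpGs. The difference between populations in the change with age was tested by a Wald test with 0.5 added to methylated and unmethylated calls. RefSeq promoter sequences (GRCm38.p6) were placed in mm9 by exact match, and 8 of the 10 genes had one. Of the listed genes, Spi1 is named Sfpi1 in GENCODE M1 and was paired through RefSeq synonyms. The calling steps were tested on simulated data.

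All 10 genes are described, and bins are named where called. Partner genes are named where at least 2 bins were called in the same direction in both populations, except 1 that is not reported here. The members, lists and limits were chosen with earlier results of these data known. Wilson and difference intervals (95%) cover counting error only, since PCR reads without molecular identifiers are not independent molecules.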

Additional observations from a re-analysis of the deposited data

Results flagged for a closer look

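One claudin bin was picked out because the change from P0 to P21 differed between ISCs and differentiated cells by a test of the difference itself. It was the Cldn23 bin at chr8:36888001-36888200, in the 3′ untranslated part of the gene, where the change in ISCs minus the change in differentiated cells was -43.7 points (SE 9.12, adjusted p = 0.00225, a Wald test over all autosomal bins, not an exact one). The level rested on 89 to 151 calls in each library. Over all bins, 0.518% passed that test with a difference of over 15 points, so that 1 of 339 claudin bins was not more than that share. With 1 library in each group, outlying samples were not looked for.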

How the results depend on the processing

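Without Cldn15, an alternative chosen after seeing the data, the claudin bins called were 5 in ISCs instead of 17 and 8 in differentiated cells instead of 20. A limit of 30 points left 10 and 9 bins, and 1 instead of 3 between the populations at P21. Without a test, differences over 15 points numbered 51 in ISCs, 46 in differentiated cells, 26 between the populations at P0 and 34 at P21. With at least 4 CpGs per bin 13 were called in differentiated cells, on 174 bins. Calls thinned to the lowest library left 13 in ISCs and 8 in differentiated cells, all losses, and 0 between the populations at P21. Bins shifted by 100 bp gave 2 calls between the populations at P0 instead of 0 and 1 at P21. For regions, limits of 10 and 15 points left 2 and 1 in ISCs instead of 4, a limit of 15 points left 3 in differentiated cells instead of 6, and a promoter of 500 bp on each side left 2. Alternatives for regions between the populations were added after seeing the data. At P0 a limit of 15 points and the mean of bins each left 1 region instead of 3, and at P21 limits of 10 and 15 points and the mean of bins each left 0 instead of 1. Of the other comparisons of a count with an alternative, 41 stayed within 1.5 times. For single regions, 215 alternatives kept direction and call, 12 lost the call, 7 gained it and 25 changed direction, 21 of these with no call under either setting. The 500-bp promoter moved island-edge bins into the Cldn12 body, whose change in ISCs became a called -13.5 points instead of 0.37. Between the populations, the Cldn12 promoter at P0 became 1.13 points as the mean of bins and 0.78 with the 500-bp promoter, and the Cldn1 promoter at P21 became 0.72 as the mean of bins. The 21 were, as means of bins in ISCs, the last exons of Cldn15 (-0.50) and Cldn1 (-15.0), the promoters of Cldn18 (1.28) and Cldn12 (0.65) and the Cldn12 body (-0.0042), and in differentiated cells the promoters of Cldn12 (-0.69), Cldn4 (-0.045) and Cldn23 (-1.47). With the 500-bp promoter they were, in ISCs, the last exons of Cldn5 (-1.29) and Cldn3 (-0.13) and the promoters of Cldn12 (0.25) and Cldn23 (-0.081), and in differentiated cells the promoters of Cldn1 (-0.49), Cldn12 (-0.24), Cldn4 (-0.19) and Cldn23 (-0.060) and the Cldn8 last exon (-3.48). With the 2-kb promoter they were the promoters of Cldn23 (-4.94) and Cldn3 (-0.29) in ISCs and of Cldn1 in differentiated cells (-2.54), and with at least 20 calls per bin the Cldn8 last exon in differentiated cells (-8.70). The growth of the Cldn15 low stretch, 1200 bp in each population, was 400 to 800 bp in ISCs and 400 to 1200 bp in differentiated cells under other limits on the level, added after seeing the data. Thin bins of intermediate level, such as those at Cldn18 and the gain upstream of Cldn4, are limited by depth. No paired analysis was possible because each comparison had 1 library on each side, which gives a single pair.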
